A study of Mus musculus with 6 samples.

Results

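The replication-dependent histone genes are the clustered genes that supply histones H1, H2A, H2B, H3 and H4 for newly copied DNA. They were taken as every gene whose symbol begins with Hist1h, Hist2h, Hist3h or Hist4h, which gave 61 of the 16668 genes listed. The symbols placed 6 genes in the H1 class, 15 in the H2A class, 16 in the H2B class, 12 in the H3 class and 12 in the H4 class. The Hist1 cluster held 50 of the genes, Hist2 held 8, Hist3 held 2 and Hist4 held 1.

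Transcription of these genes rises in S phase. Most of their mRNAs carry no poly(A) tail and end instead just past a short stem-loop, which the stem-loop binding protein SLBP holds through processing, export and translation. Histone mRNAs that are read through the stem-loop can be polyadenylated at sites further downstream, a form known from differentiated cells. The linker histone H1 binds outside the nucleosome, and the other 4 classes form its core. H2A is also the histone that the ubiquitin ligases of this study modify.

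RNA-seq was carried out on E14 mouse embryonic stem cells, a line of the 129/Ola strain, grown without feeder cells in 2i medium with LIF and transfected with siRNA. The sample labels gave 3 groups of 2 libraries: control (genotype wild type), Ring1B-KD (knockdown of Ring1B, which Rnf2 encodes) and Dzip3-KD (knockdown of Dzip3). The kit was one that selects poly(A) RNA, so the levels of the histone genes are levels in poly(A)-selected RNA. siRNA acts on the pool of transfected cells. The study describes its RNA-seq samples as biological duplicates, while the labels do not name the culture of each library.

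Each deposited file also bore a number from 1 to 6 and a condition word in its name. The word was control for file 1, which was labelled control 1, and Ring1BKD for file 2, labelled control 2. File 3 had the word Dzip3KD and the label Ring1B-KD 1, and file 4 had the word control and the label Ring1B-KD 2. File 5 had the word Ring1BKD and the label Dzip3-KD 1, and file 6 had the word Dzip3KD and the label Dzip3-KD 2. Label and word therefore differed for 4 of the 6 libraries. File numbers 1 to 3 held each word once, as did file numbers 4 to 6. Both control libraries by label were in the first set of files and both Dzip3-KD libraries were in the second, so that for these labels the condition and the file set cannot be told apart. Neither the labels nor the words are taken here as proof of what was transfected.

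Levels are in RPKM, reads scaled to gene length and to the mapped reads of the library, and the steps between low values gave 3015349 to 3583612 mapped reads. For a gene of 500 bp, a value of 0 then allows a level of up to 1.67 to 1.99 RPKM (3 reads, counting error only). All 8 pluripotency markers examined were above 0 in every library, with sums of 1380 to 1810 RPKM. Between files 4 to 6 and 1 to 3, Esrrb and Tfcp2l1 were lower (limma adjusted p of 0.0403 and 0.0351), none was called higher, 2 were higher and 3 lower at an unadjusted p under 0.05, and the median of the 8 was -0.04, as over all genes. Markers of endoderm (4 listed), mesoderm (4), trophoblast (2) and fibroblasts (3) summed to 0.0 to 3.1 RPKM per list and library. Rnf2 was at 30.6, 20.4 and 26.8 RPKM in files 1 to 3 and at 28.8, 19.4 and 28.2 RPKM in files 4 to 6. Its lowest value in each set was that of the file with the Ring1BKD word, labelled control 2 and Dzip3-KD 1. Dzip3 was at 2.24, 2.68 and 1.18 RPKM in files 1 to 3 and at 1.89, 1.7 and 1.31 RPKM in files 4 to 6, lowest in each set in the file with the Dzip3KD word. Neither gene passed the adjusted threshold in any of the 7 comparisons made. At an unadjusted p under 0.05, 1 of the 2 was lower for Ring1BKD against control by word, beside 8.31% of all genes in either direction. For Dzip3KD against Ring1BKD by word 1 was higher, beside 10.1%. Neither reached it by sample label, between the file sets or for Dzip3KD against control by word.

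The stem-loops of the genes on which the levels turn are shown first, because they mark where the mature mRNA without a tail would end. Each line gives 26 bases of the mm9 genome read along the gene's strand, with the 16 bases of the stem-loop in capitals.
Hist1h2ao (H2A, chr13:21902762-21902787, plus strand): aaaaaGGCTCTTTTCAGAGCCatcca
Hist1h2ap (H2A, chr13:21924893-21924918, minus strand): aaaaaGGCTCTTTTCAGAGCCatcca
Hist1h2ae (H2A, chr13:23662532-23662557, minus strand): acaaaGGCTCTTTTCAGAGCCattca
Hist1h1c (H1, chr13:23831376-23831401, plus strand): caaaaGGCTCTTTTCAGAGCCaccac
Hist1h2bc (H2B, chr13:23776511-23776536, plus strand): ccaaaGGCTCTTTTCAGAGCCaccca
Hist1h2bk (H2B, chr13:22128164-22128189, plus strand): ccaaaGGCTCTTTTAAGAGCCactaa
Hist1h3c (H3, chr13:23836911-23836936, minus strand): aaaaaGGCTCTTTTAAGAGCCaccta
Hist1h4i (H4, chr13:22132830-22132855, minus strand): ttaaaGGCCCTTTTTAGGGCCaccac
Hist1h4b (H4, chr13:23849230-23849255, plus strand): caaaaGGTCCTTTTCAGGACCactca

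The consensus of the histone stem-loop, 16 bases long, was found within 150 bases after the stop codon in 53 of the 60 members with a protein-coding model in the GENCODE M1 annotation, on the gene's strand. Among all 21803 genes searched in this way 65 held it, or 0.298%. Only 5 different cores occurred. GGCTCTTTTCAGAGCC was the core of 35 members and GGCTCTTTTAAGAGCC that of 7, all of them in the H1, H2A, H2B and H3 classes. All 14 H2A members with the motif had the first of these. The 11 H4 members with the motif had other cores: 8 carried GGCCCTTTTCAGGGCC, 2 carried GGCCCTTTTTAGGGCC and Hist1h4b carried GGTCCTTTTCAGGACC. The stem therefore differed between H4 and the other classes. The 7 annotated members without the motif in this window were 1 of the H2A class, 4 of the H2B class, 1 of the H3 class and 1 of the H4 class.

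Promoters, taken as 250 bases before to 50 bases after the annotated start, were searched on both strands for 3 short motifs. The CCAAT letters of the CCAAT box were present in all 6 H1, all 15 H2A and all 16 H2B promoters and in 10 of 11 H3 promoters, against 4 of 12 H4 promoters. It was in 37.6% of all 22238 promoters of this length. The octamer ATTTGCAT was in 5 H2A and 6 H2B promoters and in none of the other classes, against 1.8% of all promoters. These are not all separate stretches of DNA. Hist1h2ac and Hist1h2bc, Hist1h2ae and Hist1h2bg, and Hist1h2ah and Hist1h2bk are divergent neighbours whose search windows overlap. The same site may therefore have been counted for both genes of such a pair. The TATA box letters TATAAA were in 4 H1, 9 H2A, 9 H2B, 5 H3 and 6 H4 promoters, against 13.4% of all. These matches are a description of letters and not of bound sites.

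The members of a class are near copies of each other, which bears on how reads are assigned. Between members with coding sequences of the same length, identity ranged from 85.6% to 100% in H2A (median 97.4%), from 85.2% to 99.5% in H2B, from 93.6% to 99.8% in H3 and from 85.4% to 100% in H4. Coding sequences were the same base for base in Hist1h2ao and Hist1h2ap, in Hist1h4m and Hist1h4n, and in Hist2h2aa1 and Hist2h2aa2. The share of 50-base windows of the transcript that occur at most once in the genome had a median of 97.7% for H1, 32.9% for H2A, 45.6% for H2B, 42.7% for H3 and 58.3% for H4. Windows across a splice junction are absent from the genome and were counted as unique, which raises the share of the spliced H2B members. It was below 50% in 28 of the 60 annotated members.

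By class, H2A stood apart from the other 4 in every library. The 15 H2A genes summed to 203, 173 and 288 RPKM in files 1 to 3 (control 1, control 2 and Ring1B-KD 1) and to 184, 149 and 150 RPKM in files 4 to 6 (Ring1B-KD 2 and then both Dzip3-KD libraries). The other 46 genes together summed to 17.2, 50 and 22.0 RPKM in files 1 to 3 and to 32.2, 45.3 and 31.0 RPKM in files 4 to 6. H2A thus held between 76.6% (Dzip3-KD 1) and 92.9% (Ring1B-KD 1) of the summed RPKM of all members. The median member of the H2A class had a mean of 6.72 RPKM over the 6 libraries, and the medians of the other classes lay between 0.397 RPKM (H2B) and 0.614 RPKM (H3). All 9 members with a mean above 5 RPKM were H2A genes, and the highest mean in any other class was 3.71 RPKM. All members together made up 0.133% to 0.232% of the RPKM sum of a library.

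**Figure D1:**
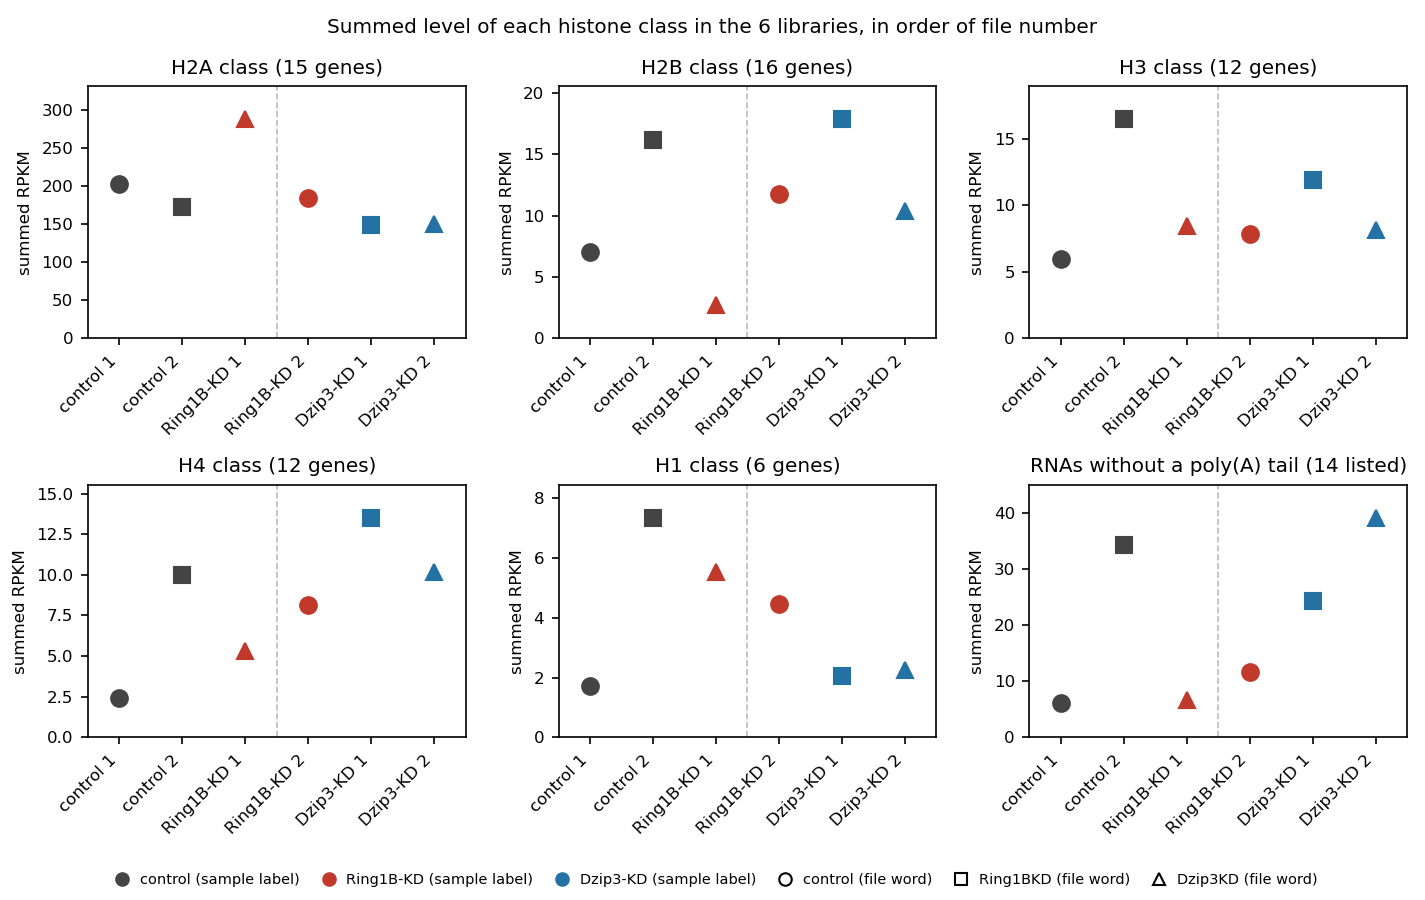
Summed RPKM of each histone class and of 14 listed RNAs made without a poly(A) tail (vertical axes, starting at 0) in the 6 libraries (horizontal axes, in order of file number, with a dashed line between file numbers 1 to 3 and 4 to 6). Colours show the sample label and symbols the word in the file name. H2A lies between 149 and 288 RPKM, and H2B, H3 and H4 are highest in each set in the file with the Ring1BKD word (squares).

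The order of the other classes was not fixed. H2B summed to 7.07, 16.2 and 2.76 RPKM in files 1 to 3 and to 11.8, 17.9 and 10.4 RPKM in files 4 to 6. H3 summed to 5.99, 16.5 and 8.43 RPKM and then to 7.86, 11.9 and 8.17 RPKM. H4 summed to 2.45, 9.99 and 5.3 RPKM and then to 8.15, 13.5 and 10.2 RPKM. H1 was lowest on average, at 1.73, 7.33 and 5.54 RPKM and then 4.45, 2.05 and 2.26 RPKM. The ranges of the H2B, H3 and H4 sums over the libraries overlapped each other and the range of H1, and all 4 lay below the range of H2A.

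These small sums rested on few reads. Whole reads could be recovered for 46 members, and 35 of these had fewer than 10 reads in every library. The H1, H2B, H3 and H4 members with whole reads, also 35 in number but not the same set, together had 26, 85 and 36 reads in files 1 to 3 and 61, 75 and 59 reads in files 4 to 6. The 11 H2A members with whole reads, which do not include Hist1h2ao, had 147, 160 and 193 reads in files 1 to 3 and 164, 125 and 152 reads in files 4 to 6. For 22 members the value was above 0 in all 6 libraries: 14 of the H2A class, 3 of H2B, 4 of H3, 1 of H4 and none of H1. A value above 0 need not be a whole read. Hist1h2ap was as low as 4.62e-09 RPKM. At the annotated length, Hist2h2aa2 corresponded to 0.0936 to 0.265 reads, and Hist1h2bq and Hist1h2br each to 0.259 reads in Ring1B-KD 1. In control 1, 24 of the 61 members were at 0, against 8 in control 2 and 14 to 20 in the other libraries.

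The Hist1 cluster on chromosome 13 carried nearly all of the signal, with 176 to 303 RPKM per library, or 95.5% to 97.6% of the members' sum. The Hist2 cluster on chromosome 3 summed to 3.34 to 6.23 RPKM. Its highest member was Hist2h2aa1 with a mean of 2.33 RPKM, and its copy Hist2h2aa2 was listed at a mean of 0.0722 RPKM although no 50-base window of either transcript is unique. Hist2h3c2 had a mean of 0.666 RPKM and Hist2h3c1 a mean of 0.212 RPKM. Hist2h2bb averaged 0.601 RPKM, Hist2h4 0.275 RPKM, Hist2h2be 0.245 RPKM and Hist2h3b 0.197 RPKM, the last from a value of 1.18 RPKM in Ring1B-KD 1 alone. On chromosome 11, Hist3h2a averaged 1.58 RPKM and Hist3h2ba 0.651 RPKM. Hist4h4 on chromosome 6 was at 1.33 RPKM in control 2 and at 0 in the other 5 libraries.

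Hist1h2ao was the highest member in every library. It lies on chromosome 13 from 21902236 to 21902754 on the plus strand (mm9) and has 1 annotated exon of 519 bp with 390 bp of coding sequence. Its level was 102, 77.1 and 163 RPKM in files 1 to 3 (control 1, control 2, Ring1B-KD 1) and 81.4, 65.4 and 62.2 RPKM in files 4 to 6 (Ring1B-KD 2 and both Dzip3-KD libraries). Ring1B-KD 1 was 1.6 times as high as the next library, and Dzip3-KD 2 was the lowest. This gene alone held 41.6% to 56.7% of the H2A sum and ranked between 61 and 249 among all genes of a library.

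The level of Hist1h2ao cannot be given to this locus alone. None of its 470 windows of 50 bases occurs once in the genome: 142 occur in 2 places and 328 in more than 2, up to 19 places. With windows of 100 bases the unique share was also 0.0%. Its copy Hist1h2ap, with the same coding sequence and the same 26 bases around the stem-loop, reached 8.76 RPKM in Ring1B-KD 1 and stayed below 0.001 RPKM elsewhere. The sum of the pair was 172 RPKM in Ring1B-KD 1 and differed from Hist1h2ao alone by under 0.001 RPKM elsewhere. Values that small are far below 1 read, and Hist1h2bq and Hist1h2br had the same value in every library, so the deposited values of near copies are not whole counts of reads unique to 1 gene. At the annotated length, Hist1h2ao corresponded to 111 to 286 reads per library. Without the pair, the H2A sum was 101, 95.4 and 116 RPKM in files 1 to 3 and 102, 83.1 and 87.4 RPKM in files 4 to 6, still above the sum of the other 4 classes in every library.

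The next H2A genes were Hist1h2ah with a mean of 17.9 RPKM and Hist1h2ad with 16.7 RPKM. Hist1h2ah was at 15.2, 21.2 and 18.2 RPKM in files 1 to 3 and at 23.2, 12.3 and 17.1 RPKM in files 4 to 6, with 24, 38 and 32 reads and then 40, 21 and 32 reads. Both sets of files covered much the same range for it. Hist1h2ad was at 16.7, 16.9 and 25.5 RPKM and then at 14.1, 12.6 and 14.6 RPKM, so that files 4 to 6 were all below files 1 to 3. Hist1h2ai was at 11.1, 10.4 and 15.9 RPKM and then at 10.8, 15 and 8.1 RPKM. Hist1h2ac had a mean of 4.38 RPKM, above every member outside H2A. Over their annotated transcripts of 1041 bp and 2482 bp, 68.8% and 88.4% of the windows are unique. The steps of their RPKM values gave shorter lengths, 448 bp for Hist1h2ai and 487 bp for Hist1h2ac. How much of the shorter lengths is unique was not computed.

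**Figure D2:**
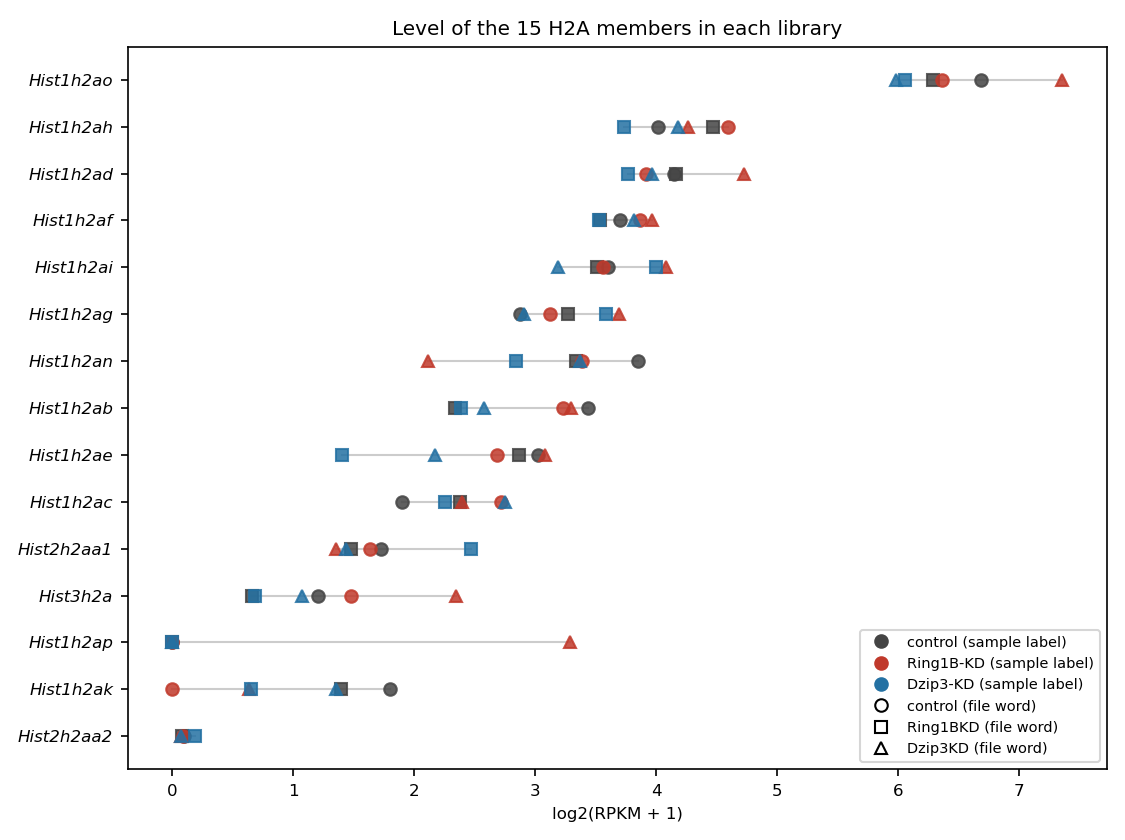
Level of each of the 15 H2A genes (rows, ordered by mean) on the log2(RPKM + 1) scale (horizontal axis), with 1 symbol per library and a grey line over their range. Hist1h2ao lies above every other gene in all 6 libraries, and Hist1h2ap exceeds 0.001 RPKM in 1 library, Ring1B-KD 1.

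In the other classes 3 members reached a mean above 2 RPKM. Hist1h2bc was at 2.14, 4.52 and 0.0 RPKM in files 1 to 3 and at 4.69, 4.75 and 6.13 RPKM in files 4 to 6. Its 0 in Ring1B-KD 1 compares with 5 to 17 reads elsewhere. Hist1h3c was at 1.38, 7.29 and 2.47 RPKM and then at 1.26, 4.46 and 3.49 RPKM, highest in each set in the file with the Ring1BKD word (12 and 7 reads, against 2 and 2 reads in the files with the control word). Hist1h4i was at 0.823, 2.89 and 1.47 RPKM and then at 3.0, 5.32 and 2.08 RPKM, with 1 to 7 reads per library.

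The other members ranked in the first 3 of their class were lower still. Hist1h2bk averaged 1.61 RPKM and Hist1h2bj 0.947 RPKM in H2B. In H3, Hist1h3b averaged 1.41 RPKM and Hist1h3d 0.812 RPKM, and in H4, Hist1h4b averaged 1.09 RPKM and Hist1h4k 0.7 RPKM. In H1, Hist1h1c averaged 1.42 RPKM, Hist1h1a 0.931 RPKM and Hist1h1d 0.631 RPKM. The testis gene Hist1h1t was above 0 in control 1 alone, at 0.451 RPKM.

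The levels were also set beside the uniqueness of the sequence and the annotated 3' end. Across the 60 annotated members, which share libraries and gene length classes, Spearman's rho between the unique share and the mean RPKM was -0.09, and it was -0.05 across the 15 H2A genes. Of the members with a stem-loop, 18 had an annotated 3' end more than 100 bp past it, with a median mean level of 0.646 RPKM and a range of 0.0565 to 11.9 RPKM. The other 35, whose models end nearer to it or before it, had a median of 0.622 RPKM and a range of 0.00333 to 91.9 RPKM. Within H2A the medians were 4.81 RPKM for 4 genes and 7.7 RPKM for 10 genes. For some of the longer models the RPKM was made on a shorter length. The steps gave 487 bp for Hist1h2ac (annotated 2482 bp) and 508 bp for Hist3h2a (annotated 1990 bp). Much of the sequence past their stem-loops was therefore not counted, and these medians cannot show whether a longer 3' end goes with the level.

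**Figure D3:**
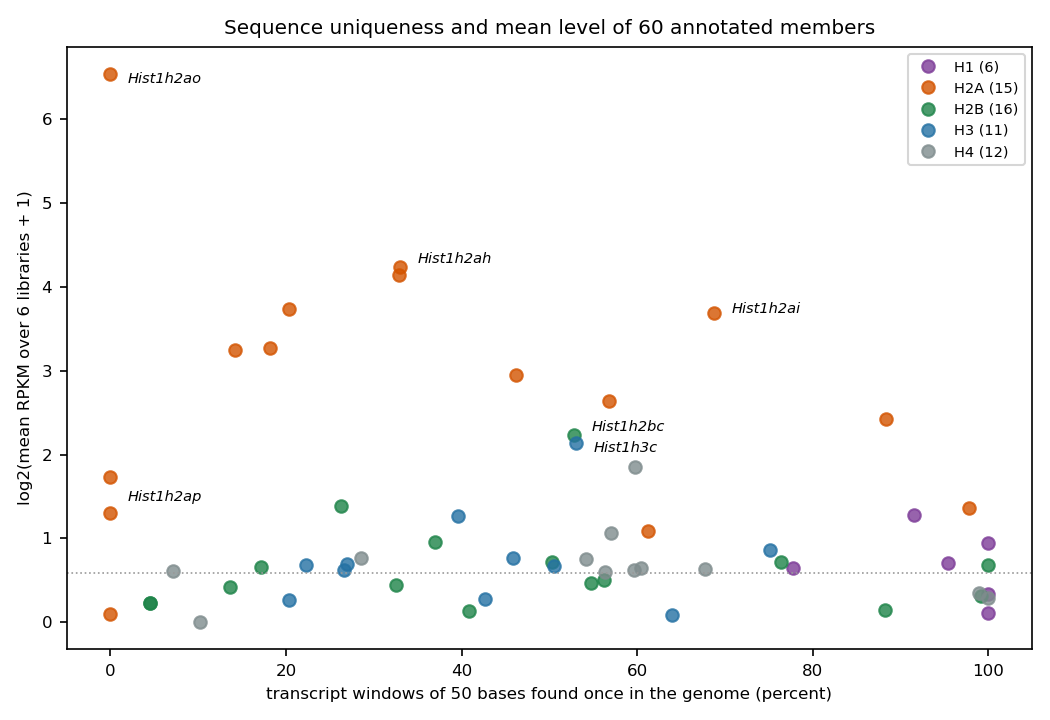
Mean level over the 6 libraries on the log2(RPKM + 1) scale (vertical axis) against the percent of 50-base transcript windows found at most once in the genome (horizontal axis) for 60 annotated members, coloured by class. The dotted line is the 0.5 RPKM filter, and rho over the 60 genes is -0.09. H2A genes spread from 0.0% (Hist1h2ao) to 97.8% (Hist3h2a), and those with a mean above 5 RPKM lie above all other classes. Other H2A genes, such as Hist1h2ak (61.2%, 1.13 RPKM) and Hist2h2aa2 (0.0%, 0.0722 RPKM), lie within the range of the other classes. The percent is that of the annotated transcript, which for some members is longer than the length behind the RPKM.

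The study asked what knockdown of either H2A ligase does to transcript levels, and these genes were first compared by sample label. The labels are not taken as proof of what was transfected. Rnf2 in both Ring1B-KD libraries lay between its values in the control libraries, while Dzip3 was lower in both Dzip3-KD libraries than in either control. A lack of calls by label therefore does not show that a knockdown had no effect. Differences were taken on log2(RPKM + 1) with limma over the 11538 genes whose mean reached 0.5 RPKM, of which 43 were members: 14 of H2A and 29 of the other classes. Hist1h4c, at 0.512 RPKM, was the member just inside this filter and Hist1h2bb, at 0.412 RPKM, the member just outside it. The 18 members below the filter were not tested.

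No member passed an adjusted p of 0.05 by sample label, and nor did any other gene, the background being 0.0% of genes for Ring1B-KD against control, 0.0% for Dzip3-KD against control and 0.0% for Dzip3-KD against Ring1B-KD. At an unadjusted p under 0.05 there were 5 members for Ring1B-KD against control (2 higher, 3 lower), or 11.6% of those tested beside 5.1% of all genes. There were 5 for Dzip3-KD against control (2 higher, 3 lower), or 11.6% beside 12.2%. There were 7 for Dzip3-KD against Ring1B-KD (2 higher, 5 lower), or 16.3% beside 4.63%. The shares were smaller on the recovered reads: in a precision-weighted limma fit (voom) on 38 members, 0.0%, 5.26% and 7.89% had an unadjusted p under 0.05, beside 5.28%, 14.1% and 5.67% of 10305 genes. The comparisons share libraries and are not independent of each other.

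The H2A sum was 188 ± 21.4 RPKM (SD, n = 2) in control, 236 ± 73.9 RPKM in Ring1B-KD and 149 ± 0.75 RPKM in Dzip3-KD, and both Dzip3-KD libraries lay below the other 4. Both were also in files 4 to 6. Hist1h2ao was at 89.6 ± 17.7 RPKM in control, 122 ± 57.9 RPKM in Ring1B-KD and 63.8 ± 2.3 RPKM in Dzip3-KD. Its difference for Dzip3-KD against control was -0.47 ± 0.3 (SE) on the log2(RPKM + 1) scale, with a limma adjusted p of 0.532.

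The members with the smallest p by label had few reads. Hist1h2ae had the smallest for Dzip3-KD, at 6.7 ± 0.61 RPKM in control, 6.43 ± 1.42 RPKM in Ring1B-KD and 2.57 ± 1.31 RPKM in Dzip3-KD (SD, n = 2). Its difference against control was -1.16 ± 0.28 (SE) with a limma adjusted p of 0.3, and the reads were 12 and 12 in control and 3 and 7 in Dzip3-KD. In the same comparison Hist1h3d differed by -1.02 and Hist1h4k by 1.35, each with a limma adjusted p of 0.319. Against control in Ring1B-KD, Hist1h2ak differed by -1.28, Hist2h2bb by -0.93 and Hist3h2a by 0.98, each with a limma adjusted p of 0.902 and at most 7 reads in a library. Between the knockdown labels, Hist1h2ae differed by -1.09, Hist2h2bb by 0.89 and Hist3h2a by -1.04, each with a limma adjusted p of 0.864. The H4 class had 8 of its 9 tested members higher in Dzip3-KD than in control, with a median difference of 0.6 beside -0.07 over all genes, and none of them was called. This rested on few reads: the H4 members with whole reads together had 3 and 10 reads in control 1 and 2, and 18 and 14 in Dzip3-KD 1 and 2.

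File numbers 4 to 6 were then compared with 1 to 3, with the word in the file name as a second term. This contrast moved 879 genes, or 7.62%, past the adjusted threshold (455 higher and 424 lower, or 581 and 325 with scaling to the 75th percentile), and among the members only Hist1h2ae, of the H2A class. Hist1h2ae was at 7.13, 6.27 and 7.44 RPKM (12, 12 and 14 reads) in files 1 to 3 and at 5.42, 1.65 and 3.5 RPKM (10, 3 and 7 reads) in files 4 to 6, and the sets did not overlap. The difference was -0.9 ± 0.21 (SE) with a limma adjusted p of 0.0403. The call was kept in only 3 of 13 alternatives, over which its adjusted p ranged from 0.00932 to 0.371. It was lost on the recovered reads (adjusted p of 0.122), without the word as a term (0.0881) and without any 1 of control 2, Ring1B-KD 1, Dzip3-KD 1 and Dzip3-KD 2, while its direction held throughout.

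At an unadjusted p under 0.05 there were 12 members in this comparison (7 higher, 5 lower in files 4 to 6), or 27.9% beside 26.5% of all genes, a share near the background. H2A genes held 3 of the 5 lower ones: Hist1h2ae, Hist1h2ad (-0.46 ± 0.14, adjusted p of 0.0786 in limma) and Hist1h2ao (-0.65 ± 0.21, adjusted p of 0.096). H4 genes held 4 of the 7 higher ones: Hist1h4h (0.8 ± 0.2, limma adjusted p of 0.0533), Hist1h4i (0.72 ± 0.19, 0.063), Hist1h4a and Hist1h4k. By class, 10 of 14 H2A members were lower and 7 of 9 H4 members were higher in files 4 to 6, with median differences of -0.22 and 0.48 beside -0.04 over all genes. The sets did not overlap for 4 members, Hist1h2bc and Hist1h3g (higher) and Hist1h2ad and Hist1h2ae (lower), while 28.6% of all genes tested did not overlap.

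**Figure D4:**
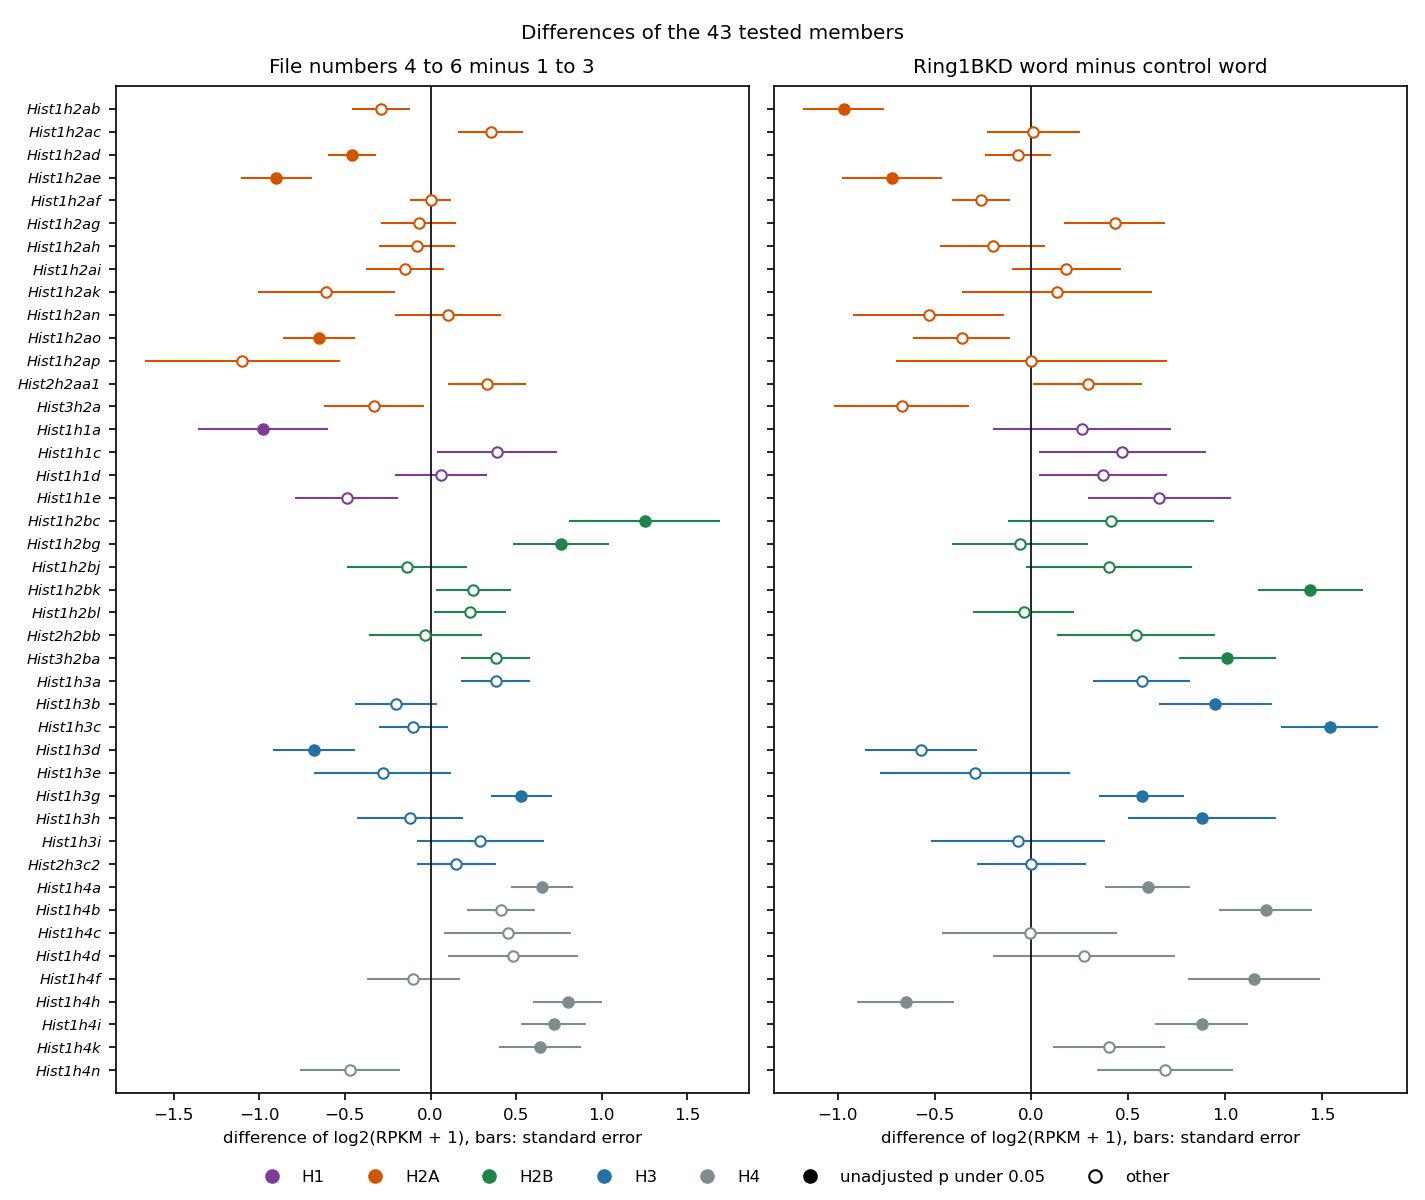
Difference of log2(RPKM + 1) (horizontal axes, points, with bars of 1 standard error) for the 43 tested members (rows, grouped and coloured by class): file numbers 4 to 6 minus 1 to 3 at left, Ring1BKD word minus control word at right. Filled points have an unadjusted p under 0.05; at left 12 are filled, among them 4 H4 genes to the right of 0 and 3 H2A genes to the left, and at right 13 are filled, with 10 to the right of 0.

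By the word in the file name, with the file set as a second term, no member was called. For Ring1BKD against control (files 2 and 5, labelled control 2 and Dzip3-KD 1, against files 1 and 4, labelled control 1 and Ring1B-KD 2), 48 genes or 0.416% were called. The unadjusted p was under 0.05 for 13 members (10 higher, 3 lower), or 30.2% beside 8.31% of all genes. The median difference of the 43 members was 0.27 beside -0.08 for all genes, but it was 0.02 without control 2, 0.10 without control 1 and 0.46 without Ring1B-KD 2. The 10 higher members were 2 H2B, 4 H3 and 4 H4 genes, and the 3 lower ones were 2 H2A genes and Hist1h4h. By class the median difference was -0.14 for H2A, 0.42 for H1, 0.41 for H2B, 0.57 for H3 and 0.6 for H4.

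Hist1h3c had the smallest p, with a difference of 1.54 ± 0.25 (SE) and a limma adjusted p of 0.0552, which ranged from 0.0331 to 0.647 over 13 alternatives. Hist1h2bk was at 0.663, 2.33 and 0.593 RPKM in files 1 to 3 and at 0.605, 4.9 and 0.558 RPKM in files 4 to 6. Its reads were 4 and 8 with the Ring1BKD word and 1 in each of the other 4 libraries, and it differed by 1.44 ± 0.27 (limma adjusted p of 0.089). Hist1h4b differed by 1.21 ± 0.24 (limma adjusted p of 0.117), with 3 and 3 reads for the Ring1BKD word and 0 and 1 reads for the control word. Of the 13 members, 10 had fewer than 10 reads in every library, and on the recovered reads 7.89% of 38 members had an unadjusted p under 0.05 beside 8.58% of all genes.

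The same values were also ordered by word within each set, which adds no independent evidence. The file with the Ring1BKD word was the highest of its set, in both sets, for 8 members: Hist1h1e, Hist1h2bk, Hist3h2ba, Hist1h3c, Hist1h3h, Hist1h4a, Hist1h4b and Hist1h4i. That is 18.6% of the 43 tested beside 8.99% of all genes, and none of the 8 was an H2A gene. It was the lowest in both sets for 4 members (9.3%, beside 20.1% of all genes), which were the H2A genes Hist1h2ab, Hist1h2ae, Hist1h2af and Hist3h2a. The sums of the 46 genes outside H2A with the Ring1BKD word were 50 and 45.3 RPKM, both above the other 4 libraries (17.2 to 32.2 RPKM).

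For Dzip3KD against control by word (files 3 and 6 against 1 and 4), 0.0% of genes were called and 6 members had an unadjusted p under 0.05, all higher, or 14% beside 6.52%. Of these 6, 4 had whole reads, and the others were Hist1h2ap and Hist1h4n, which each have a copy with the same coding sequence. On the recovered reads the share was 2.63% of 38 members beside 7.19% of all genes. The smallest p was that of Hist1h4k, with a difference of 1.34 ± 0.29 (SE) and a limma adjusted p of 0.658, from 6 reads in all. Hist1h3c (0.77) and Hist1h3g (0.54) followed, each with a limma adjusted p of 0.754. For Dzip3KD against Ring1BKD by word (files 3 and 6 against 2 and 5), 0.676% of genes were called, and 13 members had an unadjusted p under 0.05 (6 higher, 7 lower), or 30.2% beside 10.1%. On the recovered reads it was 7.89% of 38 members beside 11.1% of all genes. Of the 6 higher ones 5 were H2A genes, and the 7 lower ones were 2 H2B, 2 H3 and 3 H4 genes. Hist1h2bk (-1.49 ± 0.27, limma adjusted p of 0.0602), Hist3h2ba (-1.38 ± 0.25, 0.0644) and Hist1h4i (-0.85 ± 0.24, 0.257) had the smallest p. These contrasts share the Ring1BKD and control libraries with the one before.

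RNAs that are made without a poly(A) tail were followed as a measure of how much untailed RNA a library held. The 14 such RNAs listed summed to 6.14, 34.3 and 6.61 RPKM in files 1 to 3 and to 11.6, 24.3 and 39.2 RPKM in files 4 to 6, and 6 of them passed the filter. Rpph1, the RNA of RNase P, was at 1.02, 4.49 and 0.912 RPKM and then at 1.86, 7.54 and 3.43 RPKM. It was called for Ring1BKD against control by word (difference 1.51 ± 0.23, limma adjusted p of 0.0404) and for files 4 to 6 against 1 to 3 (0.78 ± 0.19, adjusted p of 0.0419). At a length of 500 bp, its values of 1.02 and 0.912 RPKM would be fewer than 3 reads (1.99 and 1.78 RPKM in these libraries). The reads behind these RNAs are not given here, so the calls may rest on few reads. Scarna13 was called in the latter comparison (1.26 ± 0.21, limma adjusted p of 0.0152) and Snord22 for Dzip3KD against Ring1BKD by word (2.09 ± 0.25, 0.0127). Rmrp, the RNA of RNase MRP, was at 3.62, 21.2 and 2.16 RPKM and then at 6.6, 10 and 22.3 RPKM. In both sets the file with the Ring1BKD word held more of these RNAs than the file with the control word, as it did for the histone genes outside H2A. In files 4 to 6 the highest sum of untailed RNAs was in the file with the Dzip3KD word, where the 46 histone genes were lowest. Whether the amount of untailed RNA in a library had a part in the histone levels was not tested.

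Genes that act on histone mRNA were examined from lists. Of the 13 genes of 3' end processing all were tested and none was called in any of the 7 comparisons. Slbp was at 19.3, 22.9 and 19.4 RPKM in files 1 to 3 and at 19.7, 17.3 and 20.1 RPKM in files 4 to 6, and its differences lay between -0.17 and 0.03. Lsm10, a subunit of the U7 particle that cuts histone transcripts, was at 8.35, 4.15 and 2.6 RPKM and then at 6.3, 2.68 and 2.75 RPKM. It was highest in each set in the file with the control word, with a difference of -1.17 ± 0.2 for Dzip3KD against control (limma adjusted p of 0.438) and -0.92 ± 0.2 for Ring1BKD against control (0.165). Srrt (ARS2), of the cap-binding pathway, differed by -0.35 ± 0.11 between files 4 to 6 and 1 to 3 (0.0942).

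None of the 7 genes of histone mRNA decay was called. The exosome nuclease Exosc10 differed by -0.53 ± 0.16 between the file sets (limma adjusted p of 0.0866) and the decapping enzyme Dcp2 by -0.32 ± 0.16 between the Dzip3KD and control words (0.754). Nor was any of the 11 genes of histone gene transcription called. Npat, the coactivator of the histone loci, was at 5.2 to 7.58 RPKM, with differences between -0.16 and 0.07. Cdc25a differed by -0.63 ± 0.19 between Dzip3-KD and control by label (limma adjusted p of 0.319), and Ccne1, the cyclin partner of Cdk2, by -0.45 ± 0.17 between the Ring1BKD and control words (0.511).

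Calls on the other lists came from the file sets, in which 7.62% of all genes were called, and nothing particular to a list is read from its 1 or 2 calls. Files 4 to 6 were lower than 1 to 3 for the chaperones Rbbp7 (-0.74 ± 0.12, limma adjusted p of 0.0142) and Ssrp1 (-0.59 ± 0.11, 0.0231), 2 of 12 tested. Of the 20 DNA replication genes, 2 were called, the helicase subunits Mcm5 (-0.49 ± 0.11, limma adjusted p of 0.0356) and Mcm7 (-0.56 ± 0.12, 0.029), both lower, and the list's median was -0.31 beside -0.04 for all genes. H3f3b, a gene for the replication-independent histone H3.3 whose mRNA is polyadenylated, was at 209, 200 and 171 RPKM in files 1 to 3 and at 111, 110 and 118 RPKM in files 4 to 6. Its difference was -0.77 ± 0.11 (limma adjusted p of 0.0124), and it was the only 1 of 11 histone genes outside the clusters to be called. Those 11 genes summed to 491 to 635 RPKM per library, above the 181 to 310 RPKM of all 61 clustered genes. In the other 6 comparisons none of the genes on these 6 lists was called.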

How the data were processed

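Per the labels and the study's methods, MiSeq reads of stranded mRNA libraries were placed on mm9 by Illumina's pipeline, those unique to a gene are said to have been kept, and RPKM values were made in Partek by the authors, who deposited 1 list per library. The annotation and software versions are not given in the sources used here. RPKM depends on the composition of the RNA, and the values of some near copies are fractions of a read, which unique counting would not give.

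Differences were fitted on log2(RPKM + 1) with limma 3.58.1 in R 4.3.3, with a variance trend and Benjamini-Hochberg adjustment, for genes whose mean reached 0.5 RPKM. The 6 libraries entered either a fit on the label groups or a fit on file word and file set. These scales understate differences of low genes. The code was tested on simulated reads.

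Whole reads were recovered for 82.2% of genes from the step that 1 read gives, and a length over 1.5 times the longest annotated transcript, a value above 0 but under 0.001 RPKM, or a gene above 0 in 1 library was not accepted. The length found in this way equalled that of an annotated GENCODE M1 transcript of the gene for 21.9% of the recovered genes. The recovered reads depend on these lengths. Floors cover counting error only. Stem-loops, promoters and windows were read from the NCBIM37 genome, the build of mm9, with GENCODE M1.

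Members and lists were chosen with earlier results of these data known. Named members are the 3 highest of each class, the 3 with the smallest p and any called in each comparison, those beside the filter and those outside Hist1. Named genes of the lists are those called in any comparison or else the 2 with the smallest p over all 7, with Slbp, Npat, Rnf2 and Dzip3. Others (Hist1h1t, the identical copies, the H2A genes Hist1h2ac and Hist1h2ai, members counted by their order, Rpph1 and Rmrp) were chosen after their values were seen.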

Additional observations from a re-analysis of the deposited data

How the results depend on the processing

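The members rest on few reads, each label group holds 2 libraries, and reads of near copies cannot be reassigned from these values, so the class sums say more than single genes. The differences of the 3 members with the smallest p in each comparison kept their sign under every alternative tried; other named members were not followed through the alternatives. Causes of the changes below were not tested except where the number of libraries or genes changed by construction. For Dzip3-KD against control by label, 0 genes were called in the reported fit, 3 with voom on recovered reads, 24 with only the 4 libraries compared and 1 with the replicate block. The replicate numbers did not pair the samples (correlation of deviations -0.04 for control and Ring1B-KD, -0.24 for control and Dzip3-KD, 0.04 for both knockdowns). A crossed replicate block, chosen after seeing the data, called 182 genes and 0 members. No fit with the block called a member. For file numbers 4 to 6 against 1 to 3, 0 genes were called with no filter or no moderation and 1672 with voom, and 0 members were called with a pseudocount of 0.1, no filter, no moderation, voom, or without the file word as a term. For Ring1BKD against control by word, 21 genes were called with a pseudocount of 0.1 and 0 with no filter, with no moderation or without the file set as a term. Scaling to the 75th percentile and quantile normalization each called 1 member, Hist1h3c, and the median of the members was 0.53 with a pseudocount of 0.1. For Dzip3KD against control by word, voom called 5 genes. For Dzip3KD against Ring1BKD by word, 42 genes were called with a pseudocount of 0.1, 132 with voom, and 0 with no filter, with no moderation or without the file set as a term. In place of class sums, the median over members was 0.544 (H1), 6.69 (H2A), 0.36 (H2B), 0.495 (H3) and 0.521 RPKM (H4), and the H2A sum without its highest member was 98.9 RPKM.

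Leaving out 1 library at a time, genes called ranged from 0 to 27 for Dzip3-KD against control by label and were 0 for the other label comparisons. They ranged from 351 to 509 for the file sets, from 3 to 61 for Ring1BKD against control, from 0 to 4 for Dzip3KD against control and from 26 to 172 for Dzip3KD against Ring1BKD by word. Members called ranged from 0 to 5 for the file sets (5 without control 1 or Ring1B-KD 2), from 0 to 1 for Ring1BKD against control (0 without Ring1B-KD 2 or Dzip3-KD 1 and 1 otherwise) and from 0 to 3 for Dzip3KD against Ring1BKD (3 without control 1 or Ring1B-KD 2), and were 0 elsewhere. The median difference of the members ranged from -0.22 to 0.36 for Ring1B-KD and from -0.14 to 0.35 for Dzip3-KD against control by label, negative without control 1 and highest without control 2 in both. It ranged from -0.09 to 0.14 for Dzip3-KD against Ring1B-KD, from -0.11 to 0.15 for the file sets, from 0.02 (without control 2) to 0.46 for Ring1BKD against control, from -0.09 to 0.34 for Dzip3KD against control and from -0.25 to 0.08 (without control 2) for Dzip3KD against Ring1BKD.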
